A study of Mus musculus with 12 samples.

Results

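Solute carrier transporter genes with measurable transcript in sorted mouse gut lymphoid cells are described here, and they were chosen by symbol and by level. A symbol had to read Slc, digits, a letter and digits, and the gene had to have an FPKM (fragments per kilobase of transcript, scaled to the fragments mapped) of 1 or more in 3 or more of the 12 libraries. Of 347 such symbols among 23284 genes in the table, 219 met the level. Another 25 symbols begin with Slc but do not follow the pattern, and were not counted, although 12 of them met the level. Because FPKM levels selected the members, their levels are given below as a description with no test.

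Solute carriers are membrane proteins that move nutrients, ions, nucleotides and vitamins across the plasma membrane, the inner mitochondrial membrane and the membranes of vesicles, either down a gradient or coupled to the flow of another solute. In a gene symbol the number after Slc names the subfamily, whose proteins are related in sequence and often carry related solutes. In the small intestine, absorptive epithelial cells carry sugars, amino acids and peptides in from the lumen through brush border members of the family, while lymphocytes that become active raise their transport of glucose, amino acids and lactate through other members.

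The samples were ILC3s, group 3 innate lymphoid cells, sorted from the small intestine of HR-1 mice at 18 weeks of age, with 3 libraries in each of 4 groups. The mice were offspring nursed either on maternal milk high in palmitic acid (PA-milk, written PA) or on the milk of the normal group (Normal-milk, written ND). From each diet, cells of the intraepithelial layer (Intraepithelial ILC3s, written IEL) and of the lamina propria (Lamina propria ILC3s, written LP) were sequenced. No genetic change is named for any group, and the labels do not say whether the replicates of a group came from separate animals, pools or repeated libraries, nor whether libraries with the same number in both layers came from the same mouse, so the tests measure only the spread between these libraries.

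According to the study's methods the sort kept lineage-negative cells with CD4, Thy1.2, CD25 and Nrp1, whereas a legend of the study names CD45 in place of CD4. The 12 markers of ILC3s and of the gate, most abundant Il22, summed to an FPKM of 303, 284 and 584 in ND IEL, 1923, 327 and 1067 in PA IEL, 746, 5282 and 869 in ND LP, and 244, 108 and 368 in PA LP. Il22 was most abundant only through ND LP 2, at 4339, and stood at no more than 565 elsewhere, whereas Id2 ran from 95.2 to 749.6. All 12 markers of the list reached an FPKM of 1 in 3 libraries, ND IEL 1, ND IEL 3 and ND LP 2, and 1 of 12 did so in PA IEL 2.

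Markers of other cells were present as well, so the carriers are described as those of the sorted samples rather than of ILC3s. All 17 epithelial markers were in the table, none of them listed at 0 throughout, and their summed FPKM, led by Fabp2, was 24909, 93973 and 30034 in ND IEL, 9744, 5291 and 59740.2 in PA IEL, 3487, 5202 and 6410.1 in ND LP, and 1818, 2126 and 393 in PA LP. Every IEL library but PA IEL 2 lay above every LP library in this sum. The 8 leukocyte markers, led by Coro1a, summed from 1071 to 3277 over the 12 libraries, with overlap of all 4 groups. The 6 markers of stroma and endothelium, led by Dcn, summed from 2.46 to 27.2 in IEL and from 10.8 to 2449 in LP, where PA LP 2 was the lowest library.

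Other lists of markers varied widely within groups. Goblet cell markers (6 of 7 in the table, led by Zg16) summed from 1.82 to 26682 and Paneth cell markers (6, led by Defa24) from 54.8 to 5218. The 7 myeloid markers, led by Lyz2, summed from 251 to 11249.8, the 6 T cell markers, led by Cd3g, from 2.05 to 360.1, and the B and plasma cell markers (5 of 6 in the table, led by Igj) from 11.1 to 18158. Enteroendocrine markers (6, led by Chga, with Chgb and Neurod1 listed at 0 in all libraries) summed to at most 27.4, tuft cell markers (4, led by Dclk1, with Il25 and Pou2f3 listed at 0) to at most 13.1, and erythroid markers (3, led by Hba-a1, with Alas2 listed at 0) to at most 20.04.

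Libraries were made with the SMART-Seq v4 kit, which amplifies cDNA by PCR without molecular identifiers, so a level comes from an unknown number of starting molecules. Scaled counts, the authors' counts after division by a factor per library, totalled from 9376529 to 11710874 per library, and an FPKM of 1 corresponded to a median of 29.7 scaled counts over the members, with a range from 8.65 to 93.6. The number of members at an FPKM of 1 or more was 193, 139 and 194 in ND IEL, 165, 59 and 176 in PA IEL, 136, 169 and 177 in ND LP, and 115, 71 and 162 in PA LP. PA IEL 2 and PA LP 2 stood apart, with 4390 and 5637 genes of the whole table at that level against 7863 to 11378 in the other 10 libraries. In these 2 sparse libraries 114 and 99 members were listed at 0. Actb, Gapdh, Eef1a1 and Rpl13a were above 0 in all 12 libraries, but an exact 0 in the table can also be a failed estimate, so such members are called listed at 0 and not absent.

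Few carriers were present everywhere. An FPKM of 1 or more in all 12 libraries was reached by 16 members, or 7.31% of them, against 18.1% of all 12502 genes at the same level in 3 libraries, and by 102 members in 9 or more libraries. These 16 were the mitochondrial carriers Slc25a5, Slc25a3, Slc25a39 and Slc25a11, the iron exporter Slc40a1, the haem carrier Slc48a1, the zinc carrier Slc30a5, the nucleoside carrier Slc29a1, the nucleotide-sugar carrier family member Slc35a4, the monocarboxylate carrier Slc16a1, the taurine carrier Slc6a6, and Slc3a2, Slc1a5, Slc7a5, Slc7a8 and Slc43a2, which serve amino acid transport. The median of the members' mean FPKM was 10.8, and that of all genes at the same level was 13.1. Levels were uneven, since 12 members held 50% of the summed FPKM of the family and the 10 most abundant held 47.5%.

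At the edge of the rule, the third-highest FPKM of Slc7a13, Slc27a6 and Slc26a10, just inside, was 1.003, 1.15 and 1.22. Just outside, it was 0.979 for Slc5a3, 0.957 for Slc39a1 and 0.935 for Slc39a8. Of the 128 symbols that did not meet the level, 65 were listed at 0 in all 12 libraries and 42 reached an FPKM of 1 in 1 or 2 libraries. Among the members, 15 reached an FPKM of 1 in libraries of 1 layer only and therefore had to differ by layer. The 10 seen in IEL only were Slc2a7, Slc7a15, Slc28a1, Slc5a12, Slc34a2, Slc23a1, Slc10a5, Slc47a1, Slc26a10 and Slc15a1, and the 5 seen in LP only were Slc10a6, Slc2a10, Slc2a4, Slc38a9 and Slc4a3. By diet, 3 members reached an FPKM of 1 in ND libraries only, namely Slc34a2, Slc14a1 and Slc1a4, and Slc34a2 did so in ND IEL alone.

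**Figure D1:**
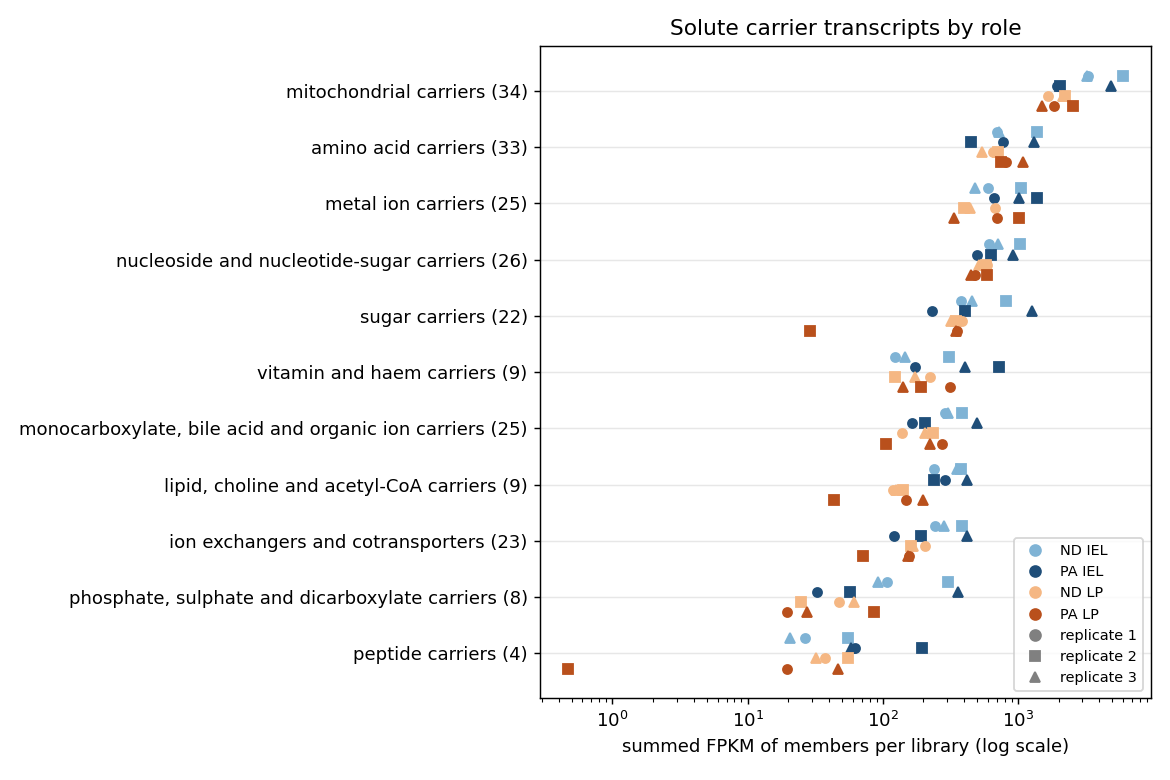
Each point is the summed FPKM of the members with 1 role in 1 library, on a log axis, coloured by group and shaped by replicate number, with the number of members in brackets. Mitochondrial carriers lie highest in every library, from 1504 to 5978.

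By role, carriers of subfamily 25 (34 members of 44 symbols), called mitochondrial here, were the most abundant, with 42.6% of the family's FPKM. Most, but not all, of them lie in the inner mitochondrial membrane. Their sum was 3282, 5978 and 3249 in ND IEL, 1959, 2041 and 4853 in PA IEL, 1665, 2231 and 2176 in ND LP, and 1848, 2558 and 1504 in PA LP. The highest values were those of ND IEL 2 and PA IEL 3, and the 3 ND IEL libraries lay above all 6 LP libraries whereas PA IEL overlapped them. Slc25a5, an exchanger of ADP for ATP, made up 21.9% of the whole family's FPKM, at 1709.6, 3841 and 1761 in ND IEL, 895, 813 and 2548 in PA IEL, 863, 957 and 1033 in ND LP, and 772, 1319 and 606 in PA LP, and was at rank 49 among all genes tested by mean level. This level is uncertain, as is that of its relative Slc25a4 (from 0 to 258), because near-identical copies of these genes elsewhere in the genome can share reads. Slc25a3, which brings phosphate in for ATP synthesis, had FPKM from 179 to 855, and Slc25a39, needed for mitochondrial glutathione, from 16.4 to 307.

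Amino acid carriers (33 members) came next with 12.7%, and their sum ran from 449.8 to 1375. In IEL both diets overlapped, and in LP the 3 PA libraries (754 to 1084) lay above the 3 ND libraries (543 to 712). Most members did not follow this order in LP, where the median diet difference was -0.33, with 13 higher and 20 lower in PA. In PA LP 1, Slc3a2 and Slc43a3 held 278 and 299.8 of the sum of 814. In PA LP 3 they held 480.0 and 355 of 1084. Slc3a2, the heavy chain that several amino acid exchangers need to reach the cell surface, had FPKM of 154, 213 and 194 in ND IEL, 446, 73.8 and 251 in PA IEL, 274, 298 and 169 in ND LP, and 278, 292 and 480.0 in PA LP. It was never below 73.8, lowest in PA IEL 2 and highest in PA LP 3. Slc1a5, a carrier of glutamine and other neutral amino acids, had a lowest, median and highest FPKM of 7.10, 25.6 and 157 in IEL and 21.8, 65.6 and 104 in LP. Slc43a3, which belongs to an amino acid carrier subfamily and carries purine nucleobases, stood at 5.30, 36.2 and 1.14 in ND IEL, 5.81, 0.0608 and 8.57 in PA IEL, 49.9, 88.3 and 35.8 in ND LP, and 299.8, 0.0762 and 355 in PA LP. In LP it was at least 35.8 in 5 of 6 libraries and near 0 in PA LP 2, and in IEL it was highest in ND IEL 2.

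Metal ion carriers (25 members, 11.2%) were led by Slc40a1, the iron exporter ferroportin of macrophages and enterocytes, at 46.1, 249 and 28.6 in ND IEL, 182, 1140.3 and 210.3 in PA IEL, 275, 85.4 and 105 in ND LP, and 349, 697 and 70.6 in PA LP. The highest values were those of PA IEL 2 and PA LP 2, the sparse libraries. Over the same libraries the 7 myeloid markers, led by Lyz2, summed to 3148, 2669.5 and 251 in ND IEL, 768, 3671 and 839.6 in PA IEL, 11249.8, 477 and 916 in ND LP, and 1682, 3613 and 457 in PA LP, and their part in the level of Slc40a1 was not tested. The lineage markers that the study names for its staining include CD11b and Gr-1, so a lineage-negative gate is meant to leave out myeloid cells. Slc39a7, a zinc carrier of the secretory pathway, had FPKM from 0.0766 to 157, with PA IEL 2 lowest. Slc39a5, a zinc importer of the basolateral membrane of epithelial cells, had a lowest, median and highest FPKM of 0.0429, 94.4 and 171 in IEL and 0.0537, 11.9 and 44.8 in LP.

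Carriers of nucleosides and nucleotide-sugars (26 members, 9.74%) had the narrowest range among the 5 most abundant roles, from 451 to 1031. Slc35b1, which exchanges ATP into the endoplasmic reticulum, was listed at 0 in PA IEL 2 and otherwise ranged from 50.6 to 236. Slc35c2, linked to fucose supply in the Golgi, ranged from 0.109 to 321, and Slc29a1, the equilibrative nucleoside carrier of the cell surface, from 35.3 to 146. The last was present in every library and highest in PA LP 1.

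Sugar carriers (22 members, 6.84%) summed to 382, 822 and 459.8 in ND IEL, 233, 406 and 1264 in PA IEL, 384, 352 and 319 in ND LP, and 355, 28.8 and 346 in PA LP. PA LP 2 was far below the rest, and ND IEL 2 and PA IEL 3 were the highest. The role includes all 5 members of subfamily 5, among them Slc5a6 and Slc5a12, which are not known as sugar carriers. The most abundant member by mean was Slc5a1, the sodium-coupled glucose carrier of the brush border, described with the layers below. Slc50a1, a sugar uniporter, had FPKM of 53.4, 0.192 and 60.8 in ND IEL, 78.9, 112 and 81.6 in PA IEL, 137, 142 and 141 in ND LP, and 202, 0.224 and 213 in PA LP. The values of Slc2a1, the glucose carrier of most dividing cells, were 21.7, 17.4 and 19.9 in ND IEL, 27.5, 0.0308 and 26.4 in PA IEL, 42.9, 64.7 and 60.6 in ND LP, and 56.8, 0.0386 and 44.7 in PA LP. Both were near 0 in PA LP 2, Slc50a1 also in ND IEL 2 and Slc2a1 also in PA IEL 2, and in the other libraries both were higher in LP than in IEL.

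Among smaller roles, vitamin and haem carriers (9 members, 3.90%) were led by Slc48a1, which moves haem out of the endolysosome, from 12.8 to 314, with PA IEL 2 highest. Slc46a3, a lysosomal carrier, had FPKM from 0 to 111, and Slc46a1, the proton-coupled folate carrier of the upper intestine, from 0 to 164. The last was high in ND IEL 2, PA IEL 2 and PA IEL 3 and at most 24.1 elsewhere.

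Carriers of monocarboxylates, bile acids and organic ions (25 members, 3.88%) were led by Slc16a5, a monocarboxylate carrier family member, from 0 to 80.3, followed by the lactate and pyruvate carrier Slc16a1, from 11.4 to 111 and the organic cation carrier family member Slc22a18, from 0 to 108. Slc16a1 was present in every library, whereas the other pair were listed at 0 in at least 1 library. Lipid, choline and acetyl-CoA carriers (9 members, 3.46%) were led by the choline carrier family member Slc44a2, from 0.0281 to 172. The fatty acid transport proteins Slc27a4 and Slc27a2, which also activate fatty acids, had lowest, median and highest FPKM in IEL of 16.9, 57.2 and 147 and of 0, 58.9 and 179. In LP the same values were 0.0569, 10.8 and 42.5 for Slc27a4 and 0, 0.135 and 12.2 for Slc27a2.

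Ion exchangers and cotransporters (23 members, 3.28%) were led by the anion exchanger Slc26a6, from 0.0573 to 204, the potassium and chloride cotransporter Slc12a7, from 0.0370 to 59.4 and the anion exchanger Slc4a2, from 0.105 to 89.2. Each of the 3 was under 1 in at least 1 LP library. Phosphate, sulphate and dicarboxylate carriers (8 members, 1.56%) were led by Slc13a2, the sodium-coupled citrate and dicarboxylate carrier, at 30.6, 236 and 37.1 in ND IEL, 8.61, 0 and 161 in PA IEL, 0, 0 and 1.21 in ND LP, and 0.0393, 0 and 0.0461 in PA LP. Its relative Slc13a1, a sulphate carrier, reached 167 in PA IEL 3, 24.7 in ND IEL 1 and at most 5.14 elsewhere, and the phosphate carrier Slc20a1 ranged from 0 to 30.4. Peptide carriers (4 members, 0.782%) were led by Slc15a4 of the endolysosome, from 0 to 196 and by Slc15a2, a high-affinity peptide carrier found from 0 to 29.98. Slc15a4 was listed at 0 in PA LP 2 only, and Slc15a2 was listed at 0 in 7 of the 12 libraries.

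By subfamily number, 46 of the 48 subfamilies in the table had a member, the exceptions being subfamilies 8 and 32. After subfamily 25, the largest shares were those of subfamily 35 (20 members, nucleotide-sugars, 8.12%), subfamily 40 (Slc40a1 alone, 4.40%), subfamily 3 (2 members, 4.30%) and subfamily 39 (10 members, zinc, 3.99%). Subfamily 5, the sodium-coupled sugar and vitamin carriers, had 5 members of 11 symbols and summed to 172, 491 and 216 in ND IEL, 42.7, 18.8 and 645 in PA IEL, 0.0820, 15.8 and 31 in ND LP, and 25.1, 3.79 and 4.59 in PA LP. Every IEL library but PA IEL 2 was above every LP library. Subfamily 13 (2 members) summed to 55.3, 236 and 39.3 in ND IEL, 8.61, 0 and 329 in PA IEL, 0.0315, 5.14 and 1.21 in ND LP, and 0.0733, 0.0399 and 0.0461 in PA LP, with the same library as the exception in IEL and no LP library above 5.14.

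The 4 groups allow the layers to be compared over both diets, which asks whether sorted cells from the epithelium and from the lamina propria hold different carriers. By limma on log2(FPKM + 1) over 12502 genes, 3 members passed an adjusted p of 0.05, or 1.37% of the 219 against 0.88% of all genes tested (110 genes), and all 3 were sugar carriers that were higher in IEL. Only Slc2a5 of these met the level in LP as well as in IEL. Slc5a11 and Slc5a1 reached an FPKM of 1 in 1 and 2 LP libraries, so their place among the genes tested rested on IEL, where they are high, and with no filter on level 0 members passed. At an unadjusted p under 0.05 there were 47 members, or 21.5%, against 13.4% of all genes, 39 of them higher in IEL and 8 lower. Of the 47, 19 met the level in IEL but not in LP and 6 in LP but not in IEL, so the count partly restates the choice by level. Among the members that met it in each layer there were 22 of 153, against 788 of 9466 such genes. Groups that did not overlap were found for 7 members higher in IEL, or 3.20%, against 0.632% of all genes, and for 1 member lower in IEL, or 0.457%, against 0.608%. The log2 values that follow are differences on the log2(FPKM + 1) scale, which understates the difference of a gene at low FPKM.

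Slc5a11, a sodium-coupled carrier of inositol and glucose on chr7:123214780-123273253 (mm10), had FPKM of 21.4, 54.4 and 23.9 in ND IEL, 7.48, 12.8 and 61.4 in PA IEL, 0, 5.14 and 0.0451 in ND LP, and 0, 0 and 0 in PA LP. All 6 IEL libraries lay above all 6 LP libraries, 4 of which were listed at 0, and the layers differed by 4.18 (standard error 0.84, adjusted p = 0.0276). Slc5a1 on chr5:33104219-33162870, through which glucose and galactose enter the enterocyte with sodium, had FPKM of 133, 390.4 and 178 in ND IEL, 26.2, 5.96 and 537 in PA IEL, 0.0581, 10.7 and 25.2 in ND LP, and 0.104, 0.122 and 0.0736 in PA LP. In 5 of 6 IEL libraries it was above the highest LP library, ND LP 3, while PA IEL 2 overlapped ND LP, and the difference was 5.17 (standard error 1.06, adjusted p = 0.0302). Slc2a5, the fructose carrier of the brush border, on chr4:150119283-150144169, had FPKM of 14.6, 14.6 and 35.1 in ND IEL, 15.4, 84.5 and 141 in PA IEL, 8.54, 6.72 and 2.27 in ND LP, and 0, 0.0316 and 0 in PA LP. Again all 6 IEL libraries lay above all 6 LP libraries, and the difference was 3.79 (standard error 0.81, adjusted p = 0.0380).

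**Figure D2:**
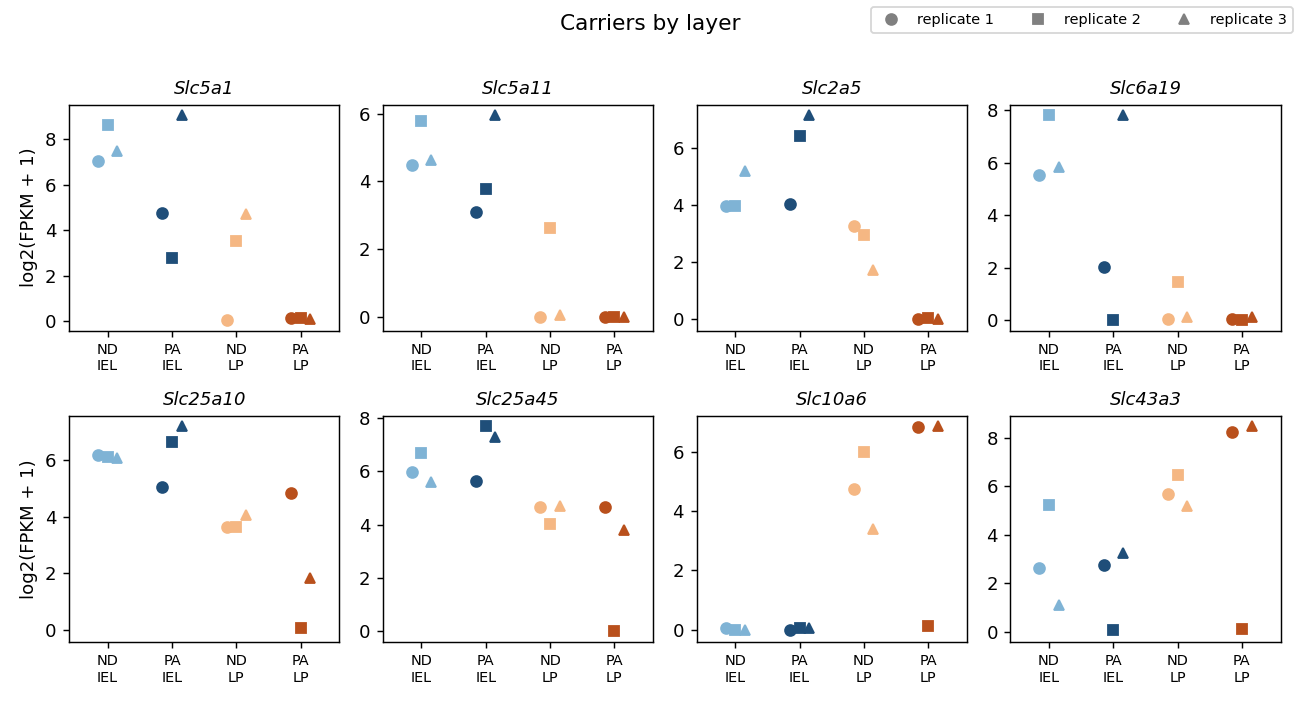
Level of 8 carriers as log2(FPKM + 1) in each library, by group on the x axis and with marker shape for the replicate number. Slc5a11 and Slc2a5 are higher in all 6 IEL than in all 6 LP libraries, and Slc10a6 is near 0 in all 6 IEL libraries and in PA LP 2.

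The samples are bulk, so fewer cells of a type and less RNA per cell cannot be told apart in any of these values. By layer, most of the 17 epithelial markers differed in the same direction as the 3 sugar carriers. Of the 17, 16 were higher in IEL and 6 passed the adjusted threshold, with a median difference of 2.59. Their summed level, led by Fabp2, was from 5291 (PA IEL 2) to 93973 (ND IEL 2) in IEL and from 393 to 6410.1 in LP. None was listed at 0 in all libraries. Between PA IEL 2 and ND IEL 2, Slc5a1 (5.96 and 390.4) and Slc5a11 (12.8 and 54.4) had the order of this sum. Slc2a5 (84.5 and 14.6) had the reverse order. The part of the epithelial markers in the result was not tested. The markers of 2 secretory cell types of the epithelium ran the other way, with 6 of 6 goblet cell markers (median -2.10) and 6 of 6 Paneth cell markers (median -1.83) lower in IEL, none past the adjusted threshold.

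The calls turned on single libraries. No member passed without ND IEL 1, ND IEL 2, ND IEL 3, PA IEL 3, ND LP 1 or PA LP 3 (0.296% to 0.552% of all genes did). Without ND LP 2 (Slc5a11), ND LP 3 (Slc5a1) or PA LP 1 (Slc25a10) 1 passed, or 0.457% of the members, against 0.320%, 0.336% and 0.424% of all genes. Without PA IEL 1, 3 passed (1.37% against 0.592%), with Slc2a7 in place of Slc5a1. Without PA IEL 2, 10 passed (4.57% against 2%), and 8 of these met the level in IEL but not in LP. Without PA LP 2, 11 passed (5.02% against 4.17%), of which 3 met it in IEL alone and 2 in LP alone. Without both sparse libraries, a setting chosen after seeing the data, 19 members passed (8.68% against 6.61%), 9 of them with the level met in IEL alone and 2 in LP alone. With sample quality weights 28 passed (12.8% against 7.85%), 14 of them with the level met in IEL alone and 2 in LP alone. Over the 153 members that met the level in each layer, the passing share was 0.654% in the fit above, against 0.528% of such genes. It was 1.31% without PA IEL 2 (against 1.39%), 3.92% without PA LP 2 (against 1.92%), 5.23% without both (against 4.48%) and 7.84% with quality weights (against 4.63%). With a pseudocount of 0.1, 2 passed, without Slc5a1 (0.913% against 0.464%). By limma 0 passed with no filter on level (0.186% of all genes), with diet and replicate number together as a block (0.232%) or on the scaled counts (0.272%). Over all alternatives the adjusted p ranged from 0.00469 to 0.0988 for Slc5a11, from 0.0014 to 0.118 for Slc5a1 and from 0.00366 to 0.129 for Slc2a5, always with IEL higher.

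Across all members the median layer difference was 0.31, with 132 higher and 87 lower in IEL, beside a median of -0.08 over all genes tested. Scaling on leukocyte genes moved the median of all genes to 0.03 and that of the members to 0.37, and without both sparse libraries they were -0.02 and 0.47. These medians partly restate the choice by level, since 36 members had an FPKM of 1 or more in 3 or more libraries in IEL but not in LP (35 of them higher in IEL) and 18 in LP but not in IEL (none higher). Over the 153 members that met the level in each layer the median was 0.24, with 91 higher and 62 lower, beside -0.04 over the 9466 such genes. Of these, 22 members had an unadjusted p under 0.05 against 788 genes. Sugar carriers, with Slc5a6 and Slc5a12 included, had a median of 1.19 (15 of 22 higher), which was 0.06 over the 12 that met the level in each layer. Lipid, choline and acetyl-CoA carriers had one of 1.55 (8 of 9 higher, none passing), the same over the 7 that met it in each layer. Phosphate, sulphate and dicarboxylate carriers had one of 0.75 (5 of 8 higher), which was -0.93 over 3. Metal ion carriers had one of 0.51 (15 of 25 higher), which was 0.35 over 23. Mitochondrial carriers had a median of 0.23 (19 of 34 higher), which was 0.58 over 29. Amino acid carriers had a median of 0.01 (17 of 33 higher), which was 0.05 over 18 and 0.16 when scaled on leukocyte genes. Without both sparse libraries the medians were 1.13 for metal ion carriers, 0.55 for mitochondrial carriers and 0.35 for amino acid carriers. By subfamily, all 5 members of subfamily 5 were higher in IEL (median 2.97), and 4 of them met the level in IEL but not in LP. In subfamily 30, the zinc exporters, 5 of 7 were higher (1.14), or 4 of the 6 that met the level in each layer (0.65). In subfamily 12, the chloride cotransporters, 2 of 6 were higher (-0.64), or 2 of the 5 that met it in each layer (-0.64). For these 3 subfamilies the sign of the median was the same under both other scalings.

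Other members whose layers did not overlap missed the adjusted threshold. Slc25a10, the mitochondrial dicarboxylate carrier, had FPKM of 71.1, 67.5 and 65.7 in ND IEL, 32.2, 98.7 and 144 in PA IEL, 11.3, 11.5 and 15.8 in ND LP, and 27.5, 0.0481 and 2.56 in PA LP. It was at least 32.2 in every IEL library and at most 27.5 in LP, a difference of 3.19 (adjusted p = 0.0700, 0.0122 to 0.179 over the alternatives). Slc25a45, a mitochondrial carrier family member, had FPKM of 61.6, 102 and 47 in ND IEL, 49, 206 and 157 in PA IEL, 24.1, 15.3 and 25.1 in ND LP, and 24, 0 and 12.9 in PA LP, with a difference of 2.84 (adjusted p = 0.0984, 0.0274 to 0.292 over the alternatives). Its lowest IEL value, 47, was above its highest LP value, 25.1. Both passed without PA LP 2, and Slc25a10 also without PA LP 1. The other 3 with higher and non-overlapping IEL values, named after they were seen, were the riboflavin carrier Slc52a2 (2.66, adjusted p = 0.187), the lysosomal glutamine carrier Slc38a7 (2.28, adjusted p = 0.177) and the ascorbate carrier Slc23a1 (2.44, adjusted p = 0.126), which entered through IEL alone.

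The member with non-overlapping layers that was lower in IEL was Slc10a6, a carrier of sulphated steroids, with FPKM of 0.0336, 0 and 0 in ND IEL, 0, 0.0380 and 0.0412 in PA IEL, 25.6, 63 and 9.60 in ND LP, and 113, 0.0952 and 115 in PA LP. It was at most 0.0952 in all IEL libraries and in PA LP 2 and at least 9.6 in the other 5 LP libraries, and it entered the members through LP alone, so that it had to differ. The fitted difference was -4.63 (adjusted p = 0.0548) and passed without PA LP 2 (-5.75, adjusted p = 0.000442), with a range of adjusted p over the alternatives from 0.000354 to 0.153. The 6 stromal and endothelial markers, led by Dcn, were all lower in IEL (median difference -3.54), with sums of 13.1, 2.46 and 12.5 in ND IEL, 24.7, 27.2 and 8.46 in PA IEL, 90.4, 618 and 2102 in ND LP, and 2449, 10.8 and 1229.7 in PA LP, none listed at 0 throughout, and their part in this difference was not tested.

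Of 34 carriers known from enterocytes, 32 were in the table and 30 were tested. By layer, 27 were higher and 3 lower in IEL with a median difference of 1.84, 15 had an unadjusted p under 0.05 (13.4% of all genes did), and 2, Slc5a1 and Slc2a5, passed the adjusted threshold (0.88% of all genes), or 9 without both sparse libraries (6.61%), 6 of which met the level in IEL but not in LP. Of the 30, 14 met the level in IEL but not in LP, and these counts partly restate that. Of the 15 that met it in each layer, 13 were higher and 2 lower in IEL with a median of 1.5. Of these, 6 had an unadjusted p under 0.05 and 1, Slc2a5, passed, against 788 and 50 of the 9466 genes that met the level in each layer. The list summed to 881, 2548 and 1001 in ND IEL, 408, 1535 and 2953 in PA IEL, 375, 329 and 369 in ND LP, and 515, 875 and 196 in PA LP. Every IEL library but PA IEL 1 was above all LP libraries. Slc40a1 led the list, at 1140.3 in PA IEL 2 and 697 in PA LP 2, where 9 and 7 genes of the list reached an FPKM of 1.

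Among the 8 most abundant of that list, Slc6a19, which takes up neutral amino acids at the brush border, had FPKM of 45.6, 225 and 55.7 in ND IEL, 3.02, 0 and 226 in PA IEL, 0.0323, 1.77 and 0.0863 in ND LP, and 0.0349, 0 and 0.0819 in PA LP and a difference of 4.54 (adjusted p = 0.0680). It reached an FPKM of 1 in 1 LP library, so its place among the genes tested rested on IEL, and its adjusted p ranged over the alternatives from 0.00517 to 0.174. Slc26a6 had FPKM of 77.3, 204 and 118 in ND IEL, 6.09, 65.5 and 180.3 in PA IEL, 0.0573, 23.3 and 9.10 in ND LP, and 10.7, 0.0724 and 5.41 in PA LP, with 5 of 6 IEL libraries above all of LP and a difference of 3.82 (adjusted p = 0.0797, 0.0553 to 0.221 over the alternatives). Slc7a9, the exchanger for cystine and basic amino acids, had 96.7, 214 and 101 in ND IEL, 7.53, 0 and 144 in PA IEL, 0, 37.6 and 27.7 in ND LP, and 0, 0 and 0 in PA LP, with a difference of 3.53 (adjusted p = 0.181, 0.0287 to 0.380 over the alternatives), and 4 of 6 IEL libraries were above all of LP. It too met the level through IEL, with 2 LP libraries at 1 or more.

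Slc39a4, the zinc importer of the enterocyte surface, had a lowest, median and highest FPKM of 0.0721, 62.3 and 245 in IEL and 0, 4.18 and 33.5 in LP, with a difference of 2.83 (adjusted p = 0.284, 0.0728 to 0.506 over the alternatives). Slc27a4 differed by 2.69 (adjusted p = 0.188, 0.0478 to 0.395 over the alternatives), with 3 of 6 IEL libraries above all of LP. Slc7a7, which exports basic amino acids basolaterally, differed by 0.09 (adjusted p = 0.986) and Slc40a1 by -0.25 (adjusted p = 0.933). The last pair overlapped between layers and turned direction when some single libraries were left out.

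Of 14 carriers listed for activated lymphocytes, all tested, 4 were higher and 10 lower in IEL, with a median difference of -0.51. By limma 0 passed the adjusted threshold (0.88% of all genes) and 0 had an unadjusted p under 0.05 (13.4% of all genes). Their sum was 369, 495 and 410.2 in ND IEL, 649, 777 and 495 in PA IEL, 644, 637 and 527 in ND LP, and 800.1, 671 and 789 in PA LP. The sums of both layers overlapped. Slc3a2 differed by -0.56 (adjusted p = 0.653), Slc29a1 by -0.83 (adjusted p = 0.497), Slc1a5 by -0.94 (adjusted p = 0.697) and the glucose carrier Slc2a1 by -1.02 (adjusted p = 0.781). Slc19a1, the reduced folate carrier, differed by -0.89 (adjusted p = 0.781), the glutamine carrier Slc38a2 by 0.62 (adjusted p = 0.840), Slc16a1 by 0.72 (adjusted p = 0.731) and the glucose carrier Slc2a3 by 0.08 (adjusted p = 0.990). All 8 overlapped between layers, and Slc38a2 and Slc2a3 turned to lower in IEL without both sparse libraries (-0.39 and -0.47).

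Of 5 carriers listed for macrophages, 4 were tested, 1 higher and 3 lower in IEL with a median difference of -0.57 and none past the adjusted threshold (0.88% of all genes). The 5 summed from 22.4 to 344, led by Slc48a1. Of 38 transport genes without an Slc symbol of this form (channels, ABC pumps and partner proteins), 36 were in the table and 34 were tested, 17 higher and 17 lower in IEL with a median of 0.16, which was 0.29 when scaled on leukocyte genes and 0.34 without both sparse libraries. At an unadjusted p under 0.05 there were 16 (13.4% of all genes), 11 higher and 5 lower, of which 7 met the level in IEL but not in LP. The 2 that passed (0.88% of all genes), Aqp3, a water and glycerol channel (4.27, adjusted p = 0.0432), and Abcg5, a sterol pump (4.85, adjusted p = 0.0276), were higher in IEL and met the level there but not in LP. Without both sparse libraries 11 passed (6.61% of all genes), 7 of them higher in IEL. The 34 include 8 that met the level in IEL but not in LP and 3 in LP but not in IEL, and these counts partly restate that. Over the 23 that met the level in each layer, 9 were higher and 14 lower with a median of -0.15. Of the 23, 9 had an unadjusted p under 0.05, against 788 of the 9466 such genes. The list summed from 997 to 2796, led by Bsg, the partner protein of monocarboxylate carriers, and Tmem27 was listed at 0 in all libraries.

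Within each diet the layer comparison used 3 libraries against 3, and these comparisons share their libraries with the one over both diets. In ND, limma called 0 members against 0.032% of all genes, and at an unadjusted p under 0.05 there were 29 members (13.2%) against 6.63%. In PA it called 0 members against 0.144% of all genes, with 27 members (12.3%) at an unadjusted p under 0.05 against 10.6%. The members' median difference was 0.44 in ND and 0.47 in PA, beside -0.09 and -0.03 over all genes. These counts and medians partly restate the choice by level, since 36 members met it in IEL but not in LP and 18 in LP but not in IEL. Of the 153 members that met it in each layer, 0 passed in ND and 0 in PA. Leaving out PA LP 2 gave 4 called members in PA (1.83% against 2.31% of all genes), and leaving out PA IEL 1 gave 1 (0.457% against 0.208%). Of the 4, 2 met the level in LP but not in IEL, and Slc2a5 and Slc43a3 met it in each layer. Slc5a1 differed by 4.94 in ND (adjusted p = 0.336) and 5.41 in PA (adjusted p = 0.242), Slc5a11 by 4.08 (adjusted p = 0.326) and 4.28 (adjusted p = 0.242), and Slc2a5 by 1.73 (adjusted p = 0.950) and 5.85 (adjusted p = 0.0614). In PA LP, Slc5a11 was listed at 0 in all 3 libraries, and Slc5a1 and Slc2a5 were at most 0.122. These PA differences therefore depend on the 1 added to each FPKM and are not folds. For Slc2a5 the values of the 3 PA LP libraries, 0, 0.0316 and 0, lay below those of ND LP, and the interaction of diet and layer was -4.13 with an adjusted p of 0.9999.

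The milk diet was compared in each layer to ask which carriers differ in mice nursed on milk high in palmitic acid. In IEL, limma called 0 members and 0% of all genes. At an unadjusted p under 0.05 there were 11 members (5.02%) against 3.58% of all genes. Groups did not overlap for 10 members higher in PA (4.57%) against 2.97%, and for 9 lower in PA (4.11%) against 5.22%, shares near those of all genes. The median difference was -0.62 over the members (67 higher, 150 lower) and -0.30 over all genes, and without both sparse libraries it was -0.12 and 0.00. The enterocyte list had a median of -1.37 (8 higher, 22 lower in PA) and the activated lymphocyte list one of -0.21, and without both sparse libraries these were -0.61 and 0.08. Of the 17 epithelial markers 16 were lower in PA IEL with a median of -1.61, as were 6 of 6 goblet cell markers (-3.05), 6 of 6 Paneth cell markers (-3.50) and 4 of 6 T cell markers (-1.21), while 8 of the 12 markers of ILC3s and of the gate were higher (0.69). No marker passed the adjusted threshold, and the part of these cell types in the members' values was not tested.

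Among members with non-overlapping diets in IEL, Slc6a13, a carrier of GABA, stood at 0.331, 0.0401 and 0.635 in ND IEL, 15.3, 21.3 and 13.6 in PA IEL, 2.19, 3.62 and 1.54 in ND LP, and 0, 0 and 2.21 in PA LP. All 3 PA IEL libraries were at 13.6 or more and all 3 ND IEL libraries at 0.635 or less, while in LP the order was the opposite for 2 of 3 PA libraries. The IEL difference was 3.73 (adjusted p = 0.947, 0.161 to 1 over the alternatives), and the interaction of diet and layer was -4.91 (adjusted p = 0.9999). The zinc importer Slc39a10 had 2.91, 0.0492 and 1.79 in ND IEL and 6.15, 75.5 and 8.07 in PA IEL, a difference of 2.92. Slc37a2, a sugar-phosphate exchanger, had 5.21, 0.0187 and 5.52 in ND IEL and 12.2, 30.3 and 18.6 in PA IEL (2.54), and Slc50a1, whose values are above, differed by 2.51. In these 3 genes ND IEL 2 was the lowest IEL library, at 0.192 or less, and PA IEL 2 the highest, and all had an adjusted p of 0.947.

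Lower in PA IEL were Slc34a2, the intestinal phosphate carrier, with 2.89, 57.7 and 9.20 in ND IEL, and Slc25a14, a mitochondrial uncoupling protein relative, with 4.57, 19.8 and 5.25. Both were listed at 0 in all 3 PA IEL libraries, so no fold is given, and Slc34a2, at most 0.023 in LP, met the level through ND IEL alone and had to differ. Slc25a20, which carries acylcarnitines into mitochondria for fatty acid oxidation, had 84.5, 120.2 and 65.6 in ND IEL and 21, 0 and 55.8 in PA IEL, a difference of -3.04. The riboflavin carrier Slc52a3 had 9.37, 28.3 and 8.27 in ND IEL and 0.0530, 0 and 7.49 in PA IEL (-2.77). Every PA IEL value of the 4 genes was below every ND IEL value, and each had an adjusted p of 0.947.

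In LP, limma again called 0 members and 0% of all genes, and 15 members (6.85%) had an unadjusted p under 0.05 against 4.7% of all genes. Groups did not overlap for 5 members higher in PA (2.28%) against 2.97%, and for 23 lower in PA (10.5%) against 6.6%. The median difference was -0.47 over the members (72 higher, 144 lower) and -0.36 over all genes, and without both sparse libraries it was -0.26 and -0.05. The activated lymphocyte list had a median of 0.40, which was -0.08 without both sparse libraries, and the enterocyte list one of -0.32, which was -0.12 without them. All 17 epithelial markers were lower in PA LP with a median of -2.0, as were 6 of 6 goblet cell markers (-5.60), 5 of 5 B and plasma cell markers (-4.45), 5 of 6 T cell markers (-1.80) and 11 of the 12 markers of ILC3s and of the gate (-1.80), while 5 of 7 myeloid markers were higher (0.71). Again no marker passed, and the part of these cell types in the members' values was not tested.

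Lower in PA LP was Slc12a8, a member of the cation and chloride cotransporter subfamily, with 19.1, 13.1 and 30.6 in ND LP and 0, 0.0321 and 2.25 in PA LP, a difference of -3.79 (adjusted p = 0.735, 0.234 to 1 over the alternatives). Slc2a6, a glucose carrier family member, had 38.6, 38.8 and 12.6 in ND LP and 0, 0 and 10.2 in PA LP (-3.64), and Slc44a4, a choline carrier family member, had 9.24, 4.32 and 13.2 in ND LP and 0.0364, 0 and 0 in PA LP (-3.18). In each of these the 3 ND LP libraries lay above the 3 PA LP libraries, of which PA LP 2 was at or near 0. Slc15a2, the peptide carrier, had 10.04, 7.18 and 6.46 in ND LP and was listed at 0 in all of PA LP. It reached an FPKM of 1 in 2 other libraries, so its place among the members rested on ND LP.

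Higher in PA LP was Slc25a33, a mitochondrial pyrimidine nucleotide carrier, with 0, 3.45 and 1.90 in ND LP and 20.1, 79.4 and 7.28 in PA LP, a difference of 3.36. Slc5a9, a carrier of mannose and glucose, had 0, 0.0190 and 0 in ND LP and 9.50, 3.67 and 0.0660 in PA LP (1.89). Slc25a36, another pyrimidine nucleotide carrier, had 8.49, 3.51 and 3.91 in ND LP and 11.6, 9.65 and 9.68 in PA LP (0.92), and the mitochondrial glutamate carrier Slc25a22 had 20.7, 15 and 17.6 in ND LP and 33.5, 37.7 and 27.2 in PA LP (0.84). All 4 had every PA LP library above every ND LP library and an adjusted p of 0.979, the value that Slc2a6, Slc44a4 and Slc15a2 also had.

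**Figure D3:**
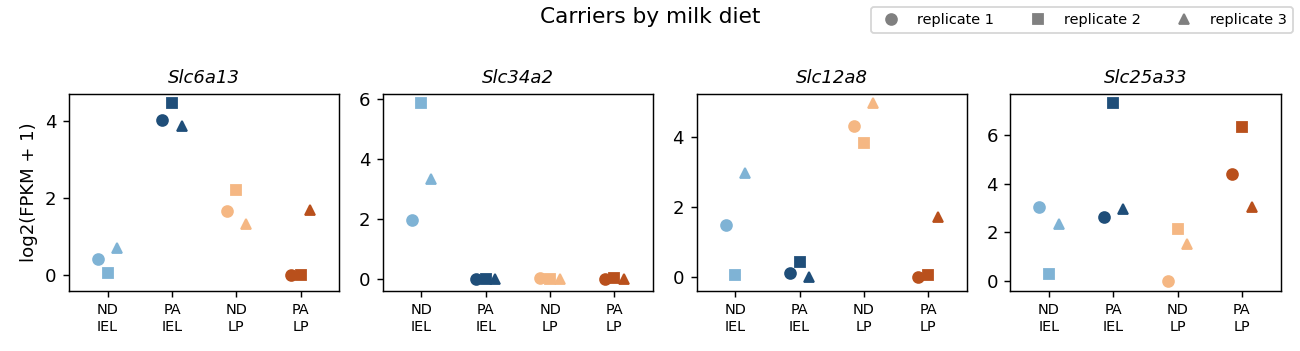
Level of 4 carriers as log2(FPKM + 1) in each library, by group on the x axis and with marker shape for the replicate number. Slc6a13 is higher in the 3 PA than in the 3 ND libraries of IEL, and Slc12a8 lower in the 3 PA than in the 3 ND libraries of LP.

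Whether the diet difference itself depends on the layer was tested as an interaction. By limma it called 0 members and 0% of all genes, with 12 members (5.48%) at an unadjusted p under 0.05 against 2.34% of all genes, and the members' median was 0.17 beside -0.03. The sign of the members' median changed with the library left out, as given in the last section. Over both layers together, PA against ND called 0 members and 0% of all genes, and 23 members (10.5%) had an unadjusted p under 0.05 against 6.02%, with 2 higher and 21 lower in PA. The median was -0.61 over the members and -0.36 over all genes. Both sparse libraries, PA IEL 2 and PA LP 2, are on the PA side. An FPKM of 1 was reached there by 26.9% and 32.4% of the members, against 34.8% and 44.2% of all genes tested. Within each layer the members' median was less negative without these libraries, as given above. Their part in the values over both layers was not tested. On the scaled counts the members' median diet differences in IEL, in LP and over both layers were more negative, as given in the last section. These diet comparisons share their libraries, so their values are given side by side and not as separate evidence. With 3 libraries against 3 the smallest exact permutation p is 0.1, and with 6 against 6 it is 0.00216, so single values were judged by the fit over all genes.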

How the data were processed

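RNA of the 12 libraries was sequenced by the submitters, whose processing notes name TopHat2 2.1.1, Bowtie2 2.2.8.0, SAMtools 0.1.18, Cufflinks 2.2.1, Cuffdiff 2.2.1 and the mm10 genome. The authors deposited FPKM values per gene and library, on a scale common to all 12 libraries, with 0 unused columns. The second deposited table holds signal that the authors obtained by dividing counts by a factor per library, so scaled counts and not raw counts, and no count-based test was run.

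Genes with an FPKM of 1 or more in 3 or more libraries (12502) were fitted with limma 3.58.1 in R 4.3.3, with an intensity trend, on log2(FPKM + 1) with the 4 group means in 1 fit. For each of 7 comparisons p was two-sided and adjusted by Benjamini-Hochberg over all genes, with 0.05 as the threshold. Tables and plots were made in Python 3.11.15 with pandas 2.3.3, numpy 2.4.6 and matplotlib 3.10.9. Gene positions are those of GENCODE on the mm10 assembly and were found for 218 of the 219 members.

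Genes were named by rule. The rule took every member past the threshold, the 3 most abundant in each of 11 roles (2 for the smallest role), up to 4 members per direction with non-overlapping groups in the comparison of diets in each layer and of layers, the 8 most abundant of the enterocyte and lymphocyte lists, and 3 genes on each side of the level. Genes named beside these were chosen after their values were seen. The members, the 4 transport lists and the 12 marker lists were chosen with earlier results of these data known. Alternatives were 2 other scalings (upper quartile, and 30 genes common to leukocytes), no filter or 6 libraries, a pseudocount of 0.1, only the 6 libraries of a comparison, a block, sample quality weights, the scaled counts, and leaving out each library. The block was the replicate number for the diet comparisons and the interaction. For the layer comparisons it was diet and replicate number together, which the labels do not say is a mouse. Leaving out both PA IEL 2 and PA LP 2 was added after seeing the data.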

Additional observations from a re-analysis of the deposited data

Results flagged for a closer look

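The carrier of GABA, Slc6a13, is listed here because in ND every IEL library was below every LP library, and in PA every IEL library was above every LP library. A fitted layer difference of opposite sign under the 2 diets was seen in other members too, Slc39a10 and Slc25a14 among them, with overlapping libraries in at least 1 diet. The diet difference in LP minus that in IEL was -4.91 on the log2(FPKM + 1) scale, with a standard error of 1.29, and its adjusted p by limma over all genes was 0.9999, so it did not pass the test. Slc6a13 is 1 of 219 members, and 12 members (5.48%) had an unadjusted p under 0.05 in this comparison, against 2.34% of all genes.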

How the results depend on the processing

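Values for named genes were recomputed under each alternative, and 719 kept their direction and their side of the threshold, 36 no longer passed, 16 newly passed and 18 turned direction. Where they moved, the cause was not tested.

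For the layers over both diets, 3 members passed, and the number was 0 with no filter, 0 with diet and replicate number together as a block (adjusted p 0.0819 to 0.103 for the first 3), 0 on the scaled counts, 28 with sample quality weights (12.8%, against 7.85% of all genes) and 19 without both sparse libraries (8.68% against 6.61%), a setting chosen after seeing the data. Of the 28 and the 19, 14 and 9 met the level in IEL but not in LP. Leaving out 1 library gave 0 to 11 (11 without PA LP 2, 5.02% against 4.17%). Within ND, where 0 passed, it was 2 with only the 6 libraries of the comparison (0.913%, against 0.736% of all genes), 26 with quality weights (11.9% against 6.34%) and 2 without both sparse libraries (0.913% against 0.904%). With only the 6 libraries both met the level in IEL alone, and without both sparse libraries both met it in LP alone. With quality weights 15 met it in IEL alone and 4 in LP alone. Over the 153 members that met it in each layer the share with quality weights was 4.58% against 2.84% of such genes. Within PA, where 0 passed, it was 1 with a pseudocount of 0.1 (0.457% against 0.104%), 2 with quality weights (0.913% against 1.07%), 1 on the scaled counts (0.457% against 0.0800%), 7 without both sparse libraries (3.20% against 2.51%) and 0 to 4 when 1 library was left out (4 without PA LP 2, 1.83% against 2.31%). Of the 2, 1 met the level in LP alone, and of the 4, 2 did so. Of the 7, 1 met it in IEL alone and 2 in LP alone. In the diet comparisons and the interaction limma called 0 members under every alternative. At an unadjusted p under 0.05 there were 11 members in IEL (5.02% against 3.58% of all genes) and 15 in LP (6.85% against 4.7%). There were 23 over both layers (10.5% against 6.02%) and 12 in the interaction (5.48% against 2.34%). The members' median diet difference on the scaled counts was -1.63 in IEL, -1.32 in LP and -1.52 over both layers. The members' interaction median ranged from -0.45 to 0.59 when 1 library was left out.

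The layer difference turned direction for 4 genes, none of which passed. For Slc7a7 it was -0.32 with a pseudocount of 0.1, -0.38 on the scaled counts and -0.89 to 0.96 when 1 library was left out. For Slc2a3 it was -0.26 with quality weights, -0.47 without both sparse libraries and -0.92 to 0.89 when 1 library was left out. For Slc38a2 it was -0.39 without both sparse libraries and -0.20 to 1.21 when 1 library was left out, and for Slc40a1 -0.72 to 0.10 when 1 library was left out.

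The table gives no raw counts, so no counting interval is given, and members near an FPKM of 1 rest on few scaled counts. Libraries with the same number may or may not be the same mouse.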
